A study of Mus musculus with 43 samples.

Results

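Rps6ka2, Gga2, Itm2a, Jcad, Pxdn, Ppp1r1b, B3galt5 and Plce1 are 8 of the 52636 genes listed for 43 RNA-seq libraries of mouse colon cultures, and all 8 changed in the same direction in each organoid line under the kinase inhibitor regorafenib, by amounts that differed between lines. Under the drug 5 of them were higher and 3 (Ppp1r1b, B3galt5 and Plce1) were lower. They were chosen on their measured regorafenib-against-vehicle differences in the organoids, so those differences are given as a description and were not tested. The dose step, the vehicle level of each genotype, the response to 5-fluorouracil (5-FU) and the response of colon fibroblasts were tested.

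Organoids were grown from the colon of adult Vil-cre/ERT2 mice, in which a tamoxifen-activated Cre is driven by the villin promoter in the epithelium. All of these mice received tamoxifen. Colonoids carried Apc wt/wt (lines M41, M40 and M1) and tumoroids carried Apc flox/flox that was recombined by the Cre (lines F11, M3 and M14), each line being derived from its own mouse. Each of the 6 lines was treated from replating for 6 days with the DMSO vehicle (Ve), 4 µM regorafenib (R4), 8 µM regorafenib (R8) or 1 µM 5-FU. Colon fibroblasts of C57B/6 mice (lines M3, M3(2), M1(2) and M11) received 1 of 5 treatments over 7 days. These were vehicle, R4, 10 µM of the same drug (R10, not in line M11), 1 µM autogramin-2 (A1), which inhibits the cholesterol transfer protein Gramd1a, and R4 together with A1. Each fibroblast line also came from its own mouse, and since these mice were wild-type, organoid and fibroblast lines with like names are from different animals.

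The 8 genes work in different parts of the cell. Rps6ka2 encodes RSK3, a ribosomal S6 kinase that acts downstream of ERK. Gga2 is a clathrin adaptor that sorts cargo from the trans-Golgi to endosomes, Itm2a is a membrane protein with a BRICHOS domain, Jcad is a protein of endothelial and epithelial cell junctions, and Pxdn (peroxidasin) cross-links collagen IV in basement membranes. Ppp1r1b encodes DARPP-32, an inhibitor of protein phosphatase 1. B3galt5 adds galactose in β-1,3 linkage to glycans, and Plce1 is phospholipase C epsilon, which is activated by Ras family GTPases. Regorafenib inhibits RAF kinases and several receptor tyrosine kinases, among them those for VEGF, PDGF and FGF, and 5-FU blocks thymidylate synthesis.

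The promoter sequences of 5 of the genes are shown because 4 of these genes were higher and B3galt5 was lower under the drug in the same cells. Promoter windows were taken from the RefSeq table (GRCm38.p6) for 6 of the 8 genes. The table held none for Ppp1r1b, and Jcad, the other higher gene, was not looked up. The sequences run 5′ to 3′ on the strand of the gene, cover up to 250 bases before the RefSeq start, and leave out every base that lies in a GENCODE exon. For Pxdn the GENCODE gene starts further upstream, at 29937608, so its window lies inside that gene, outside the exons. The window of Plce1 lay in an exon throughout and is not shown. For B3galt5, with 3 annotated starts, the most upstream one is given, and the window of the next start held an E-box.
Rps6ka2 (chr17:7169865-7170114, + strand): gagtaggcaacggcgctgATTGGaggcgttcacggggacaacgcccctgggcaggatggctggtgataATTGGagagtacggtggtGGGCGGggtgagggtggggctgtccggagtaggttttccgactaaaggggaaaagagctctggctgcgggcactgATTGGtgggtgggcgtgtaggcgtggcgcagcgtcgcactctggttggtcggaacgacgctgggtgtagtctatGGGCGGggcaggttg
Gga2 (chr7:122021223-122021448, − strand): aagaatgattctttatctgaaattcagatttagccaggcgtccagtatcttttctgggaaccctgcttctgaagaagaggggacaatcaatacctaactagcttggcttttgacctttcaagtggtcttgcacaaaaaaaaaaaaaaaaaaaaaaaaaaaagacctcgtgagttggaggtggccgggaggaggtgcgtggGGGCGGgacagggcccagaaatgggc
Itm2a (chrX:107403377-107403610, − strand): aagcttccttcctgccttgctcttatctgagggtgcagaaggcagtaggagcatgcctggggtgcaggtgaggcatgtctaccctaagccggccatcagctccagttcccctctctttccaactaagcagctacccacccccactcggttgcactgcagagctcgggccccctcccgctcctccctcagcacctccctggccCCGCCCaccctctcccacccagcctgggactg
Pxdn (chr12:29937786-29938035, + strand): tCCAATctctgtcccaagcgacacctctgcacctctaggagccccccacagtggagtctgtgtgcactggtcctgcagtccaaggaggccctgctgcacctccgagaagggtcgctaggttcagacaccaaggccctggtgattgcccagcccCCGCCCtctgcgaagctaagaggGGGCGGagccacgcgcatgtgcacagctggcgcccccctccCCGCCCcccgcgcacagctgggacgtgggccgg
B3galt5 (chr16:96235551-96235800, + strand): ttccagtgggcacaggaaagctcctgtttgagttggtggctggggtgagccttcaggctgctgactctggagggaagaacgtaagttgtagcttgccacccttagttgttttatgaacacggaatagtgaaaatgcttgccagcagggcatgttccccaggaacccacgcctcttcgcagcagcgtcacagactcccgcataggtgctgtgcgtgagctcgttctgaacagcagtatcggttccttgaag
Capitals mark the motif letters found on either strand, which were the GC box (GGGCGG) and the CCAAT box (CCAAT). The 4 promoters shown of higher genes, which leave out Jcad, each held a GC box, as did 32.7% of the 32851 RefSeq promoter windows of 250 bases. The CCAAT letters stood 3 times in the window of Rps6ka2 and 1 time in that of Pxdn, and in 33.8% of all windows. The letters of the TATA box (TATAAA, 12.4% of all windows), the E-box (CACGTG, 6.02%), the AP-1 site (TGANTCA, 6.75%), the TCF site (ATCAAAG, 3.21%), the TEAD site (GGAATG, 12.6%) and the CDX site (TTTATNG, 9.81%) were in none of the 5 sequences shown. Motif letters in a window are a description, and no binding was measured here.

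Expression was given as counts per 20000000 counted reads (CP20M), rounded up and without correction for gene length, so 20 CP20M correspond to 1 CPM. Organoid libraries held a median of 15697917 counted reads (512599 to 22367481) and fibroblast libraries 9039187 (7949963 to 12825919). The shallow library was colonoid line M41 under R4, in which a single read was worth 39.02 CP20M, and the genes had only 3 (Pxdn) to 19 (Jcad) reads there. Results that used it are given also without it where its removal changed a call. The 3 tumoroid 5-FU libraries carry titles that name colonoids, and were placed by their genotype label and library name. Fibroblast markers summed to at most 123 CP20M in any organoid library, with Lum at 0 in the vehicle groups, and endothelial markers to at most 79, whereas 9 epithelial markers summed to 106369 or more. The 6 macrophage markers summed to 617 to 3025 in vehicle-treated organoids. Of these, Csf1r was at 352 to 463 and Cd14 at 265 to 2560, and Ptprc, Adgre1, Lyz2 and C1qa were at most at 7. Apc, the floxed gene, was at 1542 to 4944 CP20M in colonoids and 3813 to 6032 in tumoroids. This is a count over the whole gene and does not show the recombined exon, so it does not check the labels.

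Rps6ka2 (ENSMUSG00000023809, GRCm38 chromosome 17, 7170115 to 7303315) was the lowest of the genes per kilobase of exon in vehicle-treated colonoids, at a mean of 6.11 CP20M per kb. Its CP20M values in vehicle were 64, 72 and 47 in colonoid lines M41, M40 and M1, and 73, 66 and 110 in tumoroid lines F11, M3 and M14. Under R4 they were 625, 469 and 331 in colonoids and 390, 340 and 349 in tumoroids, and under R8 573, 694 and 467, and 536, 471 and 572. Every regorafenib library therefore stood above every vehicle library, with 110 as the highest vehicle value and 331 as the lowest regorafenib value. Averaged over both doses and genotypes, the difference on the log2(CP20M + 20) scale was 2.45 ± 0.15 (SE, 18 libraries), and all fold changes below are on this scale, which understates changes of low values.

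Gga2 (ENSMUSG00000030872, chromosome 7, 121986722 to 122021222) was the gene whose level followed the dose most closely. It stood at 249, 223 and 207 CP20M in vehicle-treated colonoids, at 664, 712 and 743 under R4 and at 1545, 1515 and 1277 under R8. Tumoroids had 414, 258 and 274 in vehicle, 749, 659 and 987 under R4, and 1036, 1073 and 1645 under R8. The 3 colonoid treatment groups were separated by gaps wider than their own ranges, while in tumoroids the highest R4 value (987) came near the lowest R8 value (1036). The mean regorafenib difference was 1.84 ± 0.13. The antisense gene Gm44987 shares 720 exonic bases with Gga2 and moved with it, from 25 to 64 CP20M in the vehicle groups to 128 to 242 under R8. The strand setting of the counting is not stated, so reads of Gga2 and this partner cannot be told apart.

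Itm2a (ENSMUSG00000031239, chromosome X, 107397099 to 107403376) was at 76, 43 and 73 CP20M in vehicle-treated colonoids and at 18, 35 and 78 in tumoroids. R4 colonoids had 157, 294 and 512, of which the 157 rested on 4 reads of the shallow library, and R8 colonoids 701, 578 and 732. Tumoroids had 588, 560 and 1153 under R4, and 612, 971 and 1555 under R8. The lines thus differed under the drug, line M14 being the highest of all 6 at both doses, but no regorafenib value fell to the vehicle range (18 to 78). Per line the mean change over both doses lay between 1.90 (M41) and 4.03 (F11). Per kilobase, Itm2a had the highest level of the 8 genes under R8, with a mean of 384 CP20M per kb in colonoids.

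Jcad (ENSMUSG00000033960, chromosome 18, 4634878 to 4682869) changed in the same direction in every line but by unequal amounts. Vehicle values were 131, 117 and 151 CP20M in colonoids and 183, 260 and 361 in tumoroids. Under R4 they were 742, 651 and 457, and 684, 664 and 484, and under R8 894, 832 and 522, and 708, 697 and 536. Tumoroid line M14 began highest (361) and ended among the lowest under both doses (484 and 536), a change of 0.47, against 2.47 in colonoid line M41. The mean change was 2.17 ± 0.23 in colonoids and 1.21 ± 0.23 in tumoroids, a difference that was not tested because the genes were picked for like responses across lines.

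Pxdn (ENSMUSG00000020674, chromosome 12, 29937608 to 30017658) was low in vehicle-treated organoids, at 61, 94 and 46 CP20M in colonoids and 30, 22 and 37 in tumoroids. Its R4 values were 118, 577 and 793 in colonoids, where the 118 came from 3 reads, and 586, 507 and 861 in tumoroids. Its R8 values were 1012, 1491 and 774, and 414, 673 and 1175. All regorafenib libraries stood above all vehicle libraries, the narrowest margin being 94 against the 118 of the shallow library. Its mean difference, 3.38 ± 0.32, had the largest size and the largest SE of the 8.

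Ppp1r1b (ENSMUSG00000061718, chromosome 11, 98348404 to 98357796) was the most abundant of the 8 genes per kilobase in vehicle, at 1969 CP20M per kb in colonoids and 1469 in tumoroids. Its CP20M values fell from 4018, 6014 and 7264 in vehicle-treated colonoids to 703, 373 and 419 under R4 and 732, 684 and 819 under R8. In tumoroids they were 6564, 3789 and 2549 in vehicle, 398, 568 and 577 under R4, and 398, 1264 and 403 under R8. The highest regorafenib value, 1264 in tumoroid line M3, was below the lowest vehicle value, 2549 in line M14. The mean difference was -3.00 ± 0.25. The gene 1700003D09Rik on the opposite strand shares 460 exonic bases with Ppp1r1b and ran from 852 to 2544 CP20M in the vehicle groups to 118 to 421 under regorafenib, and for the reason given for Gga2 the reads of the pair cannot be told apart.

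B3galt5 (ENSMUSG00000074892, chromosome 16, 96235801 to 96319859) was at 2058, 3014 and 3768 CP20M in vehicle-treated colonoids, at 235, 374 and 323 under R4 and at 229, 289 and 508 under R8. Tumoroids had 1917, 671 and 771 in vehicle, 141, 256 and 215 under R4, and 96, 194 and 172 under R8. Vehicle and regorafenib libraries did not overlap (671 against 508), although tumoroid lines M3 and M14 began lower than the other 4 lines. The change per line ran from -3.83 in F11 to -1.51 in M3.

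Plce1 (ENSMUSG00000024998, chromosome 19, 38481109 to 38785030) was the gene in which vehicle and regorafenib libraries overlapped over all organoids. Colonoids had 1585, 2111 and 3023 CP20M in vehicle, 703, 670 and 537 under R4, and 405, 639 and 806 under R8. Tumoroids had 758, 660 and 901, then 344, 385 and 315, and then 350, 359 and 335. Within each genotype the groups were apart, but treated colonoids reached the level of untreated tumoroids. The mean difference was -1.44 ± 0.15.

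**Figure D1:**
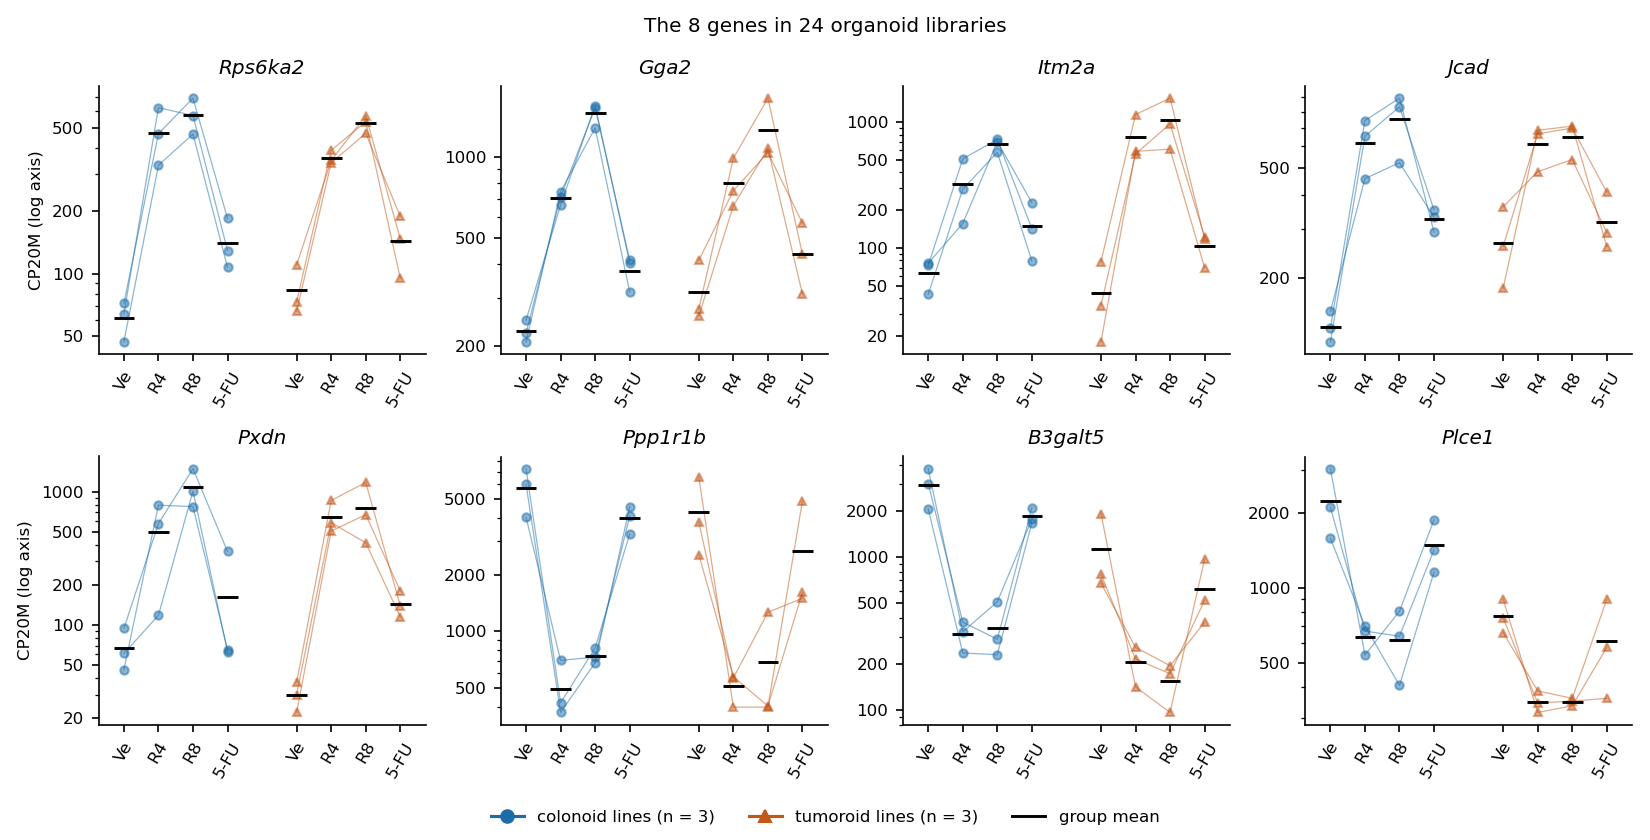
CP20M (log axis) of the 8 genes in each organoid library, by treatment, with colonoid lines as circles, tumoroid lines as triangles, libraries of the same line joined and black bars at the group means. The upper row and Pxdn stand higher under R4 and R8 than in vehicle in all 6 lines, Ppp1r1b, B3galt5 and Plce1 stand lower, and the 5-FU group means lie between those of vehicle and R4.

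In the fit over all genes, these 8 were past the threshold for regorafenib against vehicle (false discovery rate 0.001 and a fold change of at least 1.5 in either direction), which 4.97% of the 11320 tested genes also passed. Their ranks by p-value lay between 1 (Rps6ka2) and 51 (Plce1). Regorafenib and vehicle libraries did not overlap for 7 of the 8, against 4.63% of all tested genes, and all 8 changed in the same direction in each of the 6 lines at both doses, which 17.4% of tested genes did. These values chose the genes, and nothing is read from them. The median of all genes in this comparison was -0.10. Across the 24 organoid libraries the 5 higher genes correlated with each other at Pearson's r of 0.766 (Jcad with Pxdn) to 0.936 (Rps6ka2 with Jcad), and the 3 lower genes at 0.706 to 0.913. The libraries share treatments and lines, so these values are a description.

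The order of the group means was vehicle, 5-FU, R4 and R8, from low to high, for each of the 5 higher genes in both genotypes. Neighbouring groups did not overlap for Gga2 in colonoids, whereas for Pxdn in colonoids all 3 neighbouring pairs overlapped. For the 3 lower genes, vehicle was highest and 5-FU next in both genotypes, and these neighbours overlapped in each case. R4 and R8 overlapped for each lower gene, and their order was not the same in colonoids and tumoroids for B3galt5. For Plce1 the R4 and R8 means were equal in tumoroids (348 CP20M).

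The step from 4 to 8 µM asked how much the response grew with the dose. These libraries also entered the choice of the genes, which can favour a small spread within groups. The p-values of the dose step and of its genotype interaction are therefore not independent of that choice. Gga2 rose further by 0.82 ± 0.15 between the doses (higher in 6 of 6 lines, adjusted p = 0.0347, limma with Benjamini-Hochberg adjustment over all tested genes). It was the only 1 of the 8 genes past the threshold (false discovery rate 0.05 and 1.5-fold), which 0.451% of 11320 genes passed. Of all calls 41.2% were higher at R8, against 30.2% with TMM rescaling and 28.1% with edgeR, where the median of all genes moved by -0.12 from 0.11. Itm2a was 0.78 ± 0.31 higher under R8 than R4 (6 of 6 lines, limma adjusted p = 0.253), Pxdn 0.76 ± 0.37 (4 of 6 lines, 0.347) and Rps6ka2 0.41 ± 0.17 (5 of 6 lines, 0.288), none of which passed. For Jcad the step was 0.17, with a 95% interval of -0.23 to 0.58. For B3galt5 it was -0.15 (-0.75 to 0.45) and for Plce1 -0.04 (-0.42 to 0.33), so a further change of the size seen in Gga2 lay outside these intervals. Ppp1r1b was 0.41 higher under R8 than R4, that is nearer to vehicle, with an interval of -0.21 to 1.03.

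The adjusted p of Gga2 was close to the limit. It passed also with TMM rescaling, a pseudocount of 2, edgeR, the line as a block and without the shallow library, but not without a filter on low values (limma adjusted p = 0.0636) or with any single line left out (limma adjusted p between 0.0694 and 0.218, log2 fold change 0.77 to 0.88). In the shallow library the M41 steps of Itm2a (2.03) and Pxdn (2.90) rested on 4 and 3 reads. Whether the dose step differed between the genotypes was tested as an interaction, and by limma none of the 8 genes passed, as 0% of all tested genes did. None of the 8 had an unadjusted p under 0.05 there, edgeR also called none of them, and 109 of all tested genes were under that unadjusted limit. The interval of this difference for Gga2 was -1.03 to 0.26.

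Apc loss was examined in the vehicle-treated organoids. These libraries and the shared variance of the fit also entered the choice of the genes, so the p-values are not independent of that choice. Plce1 was lower in tumoroids (660 to 901 CP20M) than in colonoids (1585 to 3023), by -1.47 ± 0.25, with limma adjusted p = 0.0133 against a threshold of 0.01 that it missed. B3galt5 differed by -1.50 ± 0.40 (limma adjusted p = 0.0768), with 1917 in tumoroid line F11 near the lowest colonoid value of 2058. Jcad was 0.87 ± 0.27 higher in tumoroids, whose values (183 to 361) all lay above those of colonoids (117 to 151), with limma adjusted p = 0.12. None of the 8 genes passed (limma), and 0.141% of all genes did. The unadjusted limma p was under 0.05 for 3 of the 8, and for 1717 of the 11320 tested genes. With edgeR, Plce1 passed (-1.57, edgeR adjusted p = 0.0063), as 0.239% of all genes did. Plce1 also passed in limma without the shallow library (adjusted p = 0.00612), which enters only through the shared variance, and without line M41 (-1.69, adjusted p = 0.0038). For Rps6ka2, Gga2, Itm2a, Pxdn and Ppp1r1b the differences lay between -0.78 and 0.42, all with intervals that include 0.

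The 5-FU libraries show whether a cytotoxic drug of another class moved the same genes. These comparisons use the vehicle libraries that also entered the choice of the genes, so their directions and p-values are not independent of it. Rps6ka2 was 0.81 ± 0.19 higher with 5-FU (6 of 6 lines, limma adjusted p = 0.0245) and Jcad 0.72 ± 0.18 (5 of 6 lines, limma adjusted p = 0.0351). These were 2 of the 8 genes, and 2.35% of 11562 genes passed the same threshold (0.05 and 1.5-fold).

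The values of Rps6ka2 with 5-FU were 129, 184 and 107 CP20M in colonoids and 95, 188 and 147 in tumoroids, so they reached at most 188 where the lowest regorafenib value was 331. Jcad had 292, 352 and 331 in colonoids and 259, 408 and 291 in tumoroids, the last of these, in line M14, being below that line's vehicle value of 361. The 5-FU change of Jcad was 1.18 ± 0.25 in colonoids and 0.26 ± 0.25 in tumoroids, and the difference between them did not pass (-0.92 ± 0.36, limma adjusted p = 1). By limma none of the 8 passed for a genotype difference of the 5-FU response, with 0% of all genes called, 1 of the 8 (Jcad) and 87 of all genes at an unadjusted p under 0.05, and none of the 8 called by edgeR.

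Among the other 6 genes, Gga2 stood at 405, 415 and 317 CP20M with 5-FU in colonoids and 569, 311 and 436 in tumoroids (0.57 ± 0.16, limma adjusted p = 0.0599). Itm2a had 230, 79 and 143, and 70, 123 and 119 (0.99 ± 0.31, limma adjusted p = 0.0946). Pxdn had 63, 356 and 65 in colonoids, where only line M40 stood out, and 115, 180 and 139 in tumoroids (1.21 ± 0.41, limma adjusted p = 0.119). Of the lower genes, Ppp1r1b differed by -0.65 ± 0.32, B3galt5 by -0.71 ± 0.28 and Plce1 by -0.49 ± 0.21, with limma adjusted p of 0.324, 0.196 and 0.239. Their 5-FU libraries ranged from 1497 to 4903, 373 to 2089 and 359 to 1883 CP20M, and overlapped those of vehicle.

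The number of the 8 genes past the 5-FU threshold changed with the fit. With the line as a block, which takes the level of each mouse into account, it was 4, with Itm2a (limma adjusted p = 0.0161) and Pxdn (0.0342) added, where 5.05% of all genes passed. Without the shallow library it was also 4 (4.28% of all genes), with Itm2a at 0.0357 and Pxdn at 0.0263, and edgeR called 5 (3.69%). With TMM rescaling only Rps6ka2 passed (limma adjusted p = 0.0453, 2.53% of all genes), with Jcad at 0.0567, and without a filter on low values none of the 8 did (0.468%), with Rps6ka2 at 0.0526 and Jcad at 0.078. The number was 0 without line M40, M1, M3 or M14 and 1 without line F11. With the 3 differently titled tumoroid libraries left out, the colonoids alone gave 0.97 for Rps6ka2 (limma adjusted p = 0.292) and 1.18 for Jcad (0.142), and none of the 8 genes passed, against 0.0526% of all genes.

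**Figure D2:**
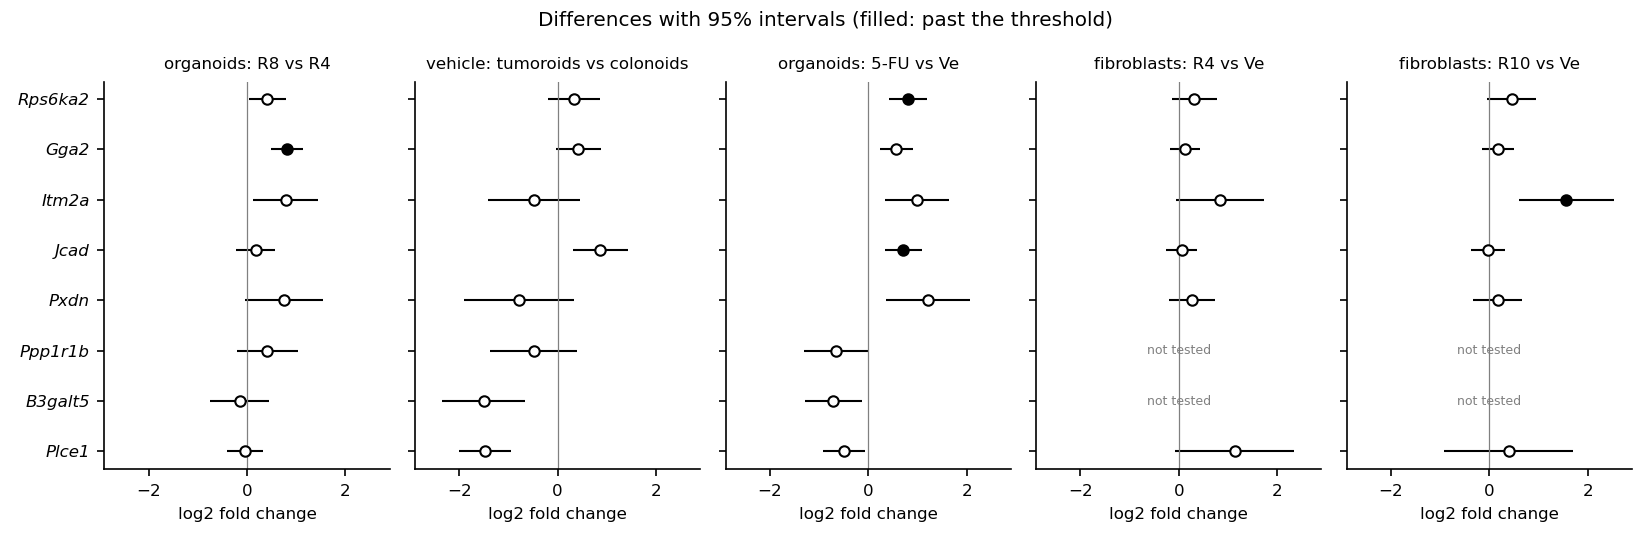
Log2 fold changes of the 8 genes (x axes, log2(CP20M + 20) scale) in 5 comparisons, with 95% intervals as bars and filled points past the threshold of that comparison. Filled points are Gga2 for the dose step, Rps6ka2 and Jcad for 5-FU and Itm2a for 10 µM regorafenib in fibroblasts, and Ppp1r1b and B3galt5 were too low for a test in fibroblasts.

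Genes that belong with the 8 by family or pathway were compared through 8 lists that hold 88 further genes, 63 of them tested in organoids. Of these, 9 passed for regorafenib against vehicle (14.3%, against 4.97% of all tested genes), all of them higher, and the median log2 fold change of the 63 was -0.04 against -0.10 for all genes. The lists were chosen with earlier results of these data known, so their shares of calls, here and below, are a description. The list of collagen IV chains and collagen cross-linking enzymes held 6 of the 9. Col4a3 was higher by 2.80 ± 0.46 (limma adjusted p = 0.000514), Plod2, a lysyl hydroxylase, by 1.81 ± 0.19 (1.57e-05), Col4a5 by 1.64 ± 0.26 (0.000423), Col4a1 by 1.40 ± 0.19 (9.71e-05) and Col4a2 by 1.22 ± 0.19 (0.000326). Loxl4, a lysyl oxidase, also passed, 10 of the 14 genes beside Pxdn were tested, and the median of the 10 was 1.31.

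The phospholipase C list contained genes on both sides. Plcg1 was higher by 1.13 ± 0.13 (limma adjusted p = 3.26e-05) and Plcg2 by 1.35 ± 0.18 (9.3e-05), while Plce1 itself was lower, and 7 of the 14 others were tested. Itm2c, the nearest relative of Itm2a, was higher by 1.30 ± 0.12 (limma adjusted p = 7.32e-06), and Itm2b by 0.15 ± 0.13 (0.413). The 5 kinase relatives of Rps6ka2 did not pass by limma, and edgeR called Rps6ka3, as it called 7.85% of all tested genes. The unadjusted limma p was under 0.05 for 3 of the 5, and for 4356 of all 11320 tested genes. Rps6ka1 (-0.58 ± 0.13, limma adjusted p = 0.00346) and Rps6ka3 (-0.85 ± 0.20, 0.00647) had the opposite sign to Rps6ka2.

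No gene passed by limma among the 8 GGA and sorting genes tested beside Gga2, with Gga1 at -0.10 ± 0.09 and Gga3 at -0.16 ± 0.22. Of these 8, 3 had an unadjusted p under 0.05, and edgeR called 1, the sorting receptor Igf2r, against 7.85% of all tested genes. The same held by limma for the 13 Hippo and adherens junction genes beside Jcad, the 10 protein phosphatase 1 genes beside Ppp1r1b and the 7 β-1,3-glycosyltransferases beside B3galt5, with 1, 7 and 5 at an unadjusted p under 0.05 and none called by edgeR. Of all 11320 tested genes, 4356 were under that unadjusted limit in this comparison. The medians of the 4 lists were 0.13, 0.01, -0.32 and -0.59. In the 5-FU comparison 3 of the 63 passed by limma (4.76%, against 2.35% of all genes). They were Plod2 (1.23 ± 0.24, limma adjusted p = 0.0111), Plcg1 (0.83 ± 0.15, 0.00616) and Itm2c (0.69 ± 0.14, 0.0131). Here edgeR called these and B3galt4, and 3.69% of all genes. In vehicle 1 of the 63 passed by limma between the genotypes (1.59%, against 0.141% of all genes). This was Plcl2, at -2.62 ± 0.40 in tumoroids against colonoids (limma adjusted p = 0.00725), and edgeR did not call it.

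**Figure D3:**
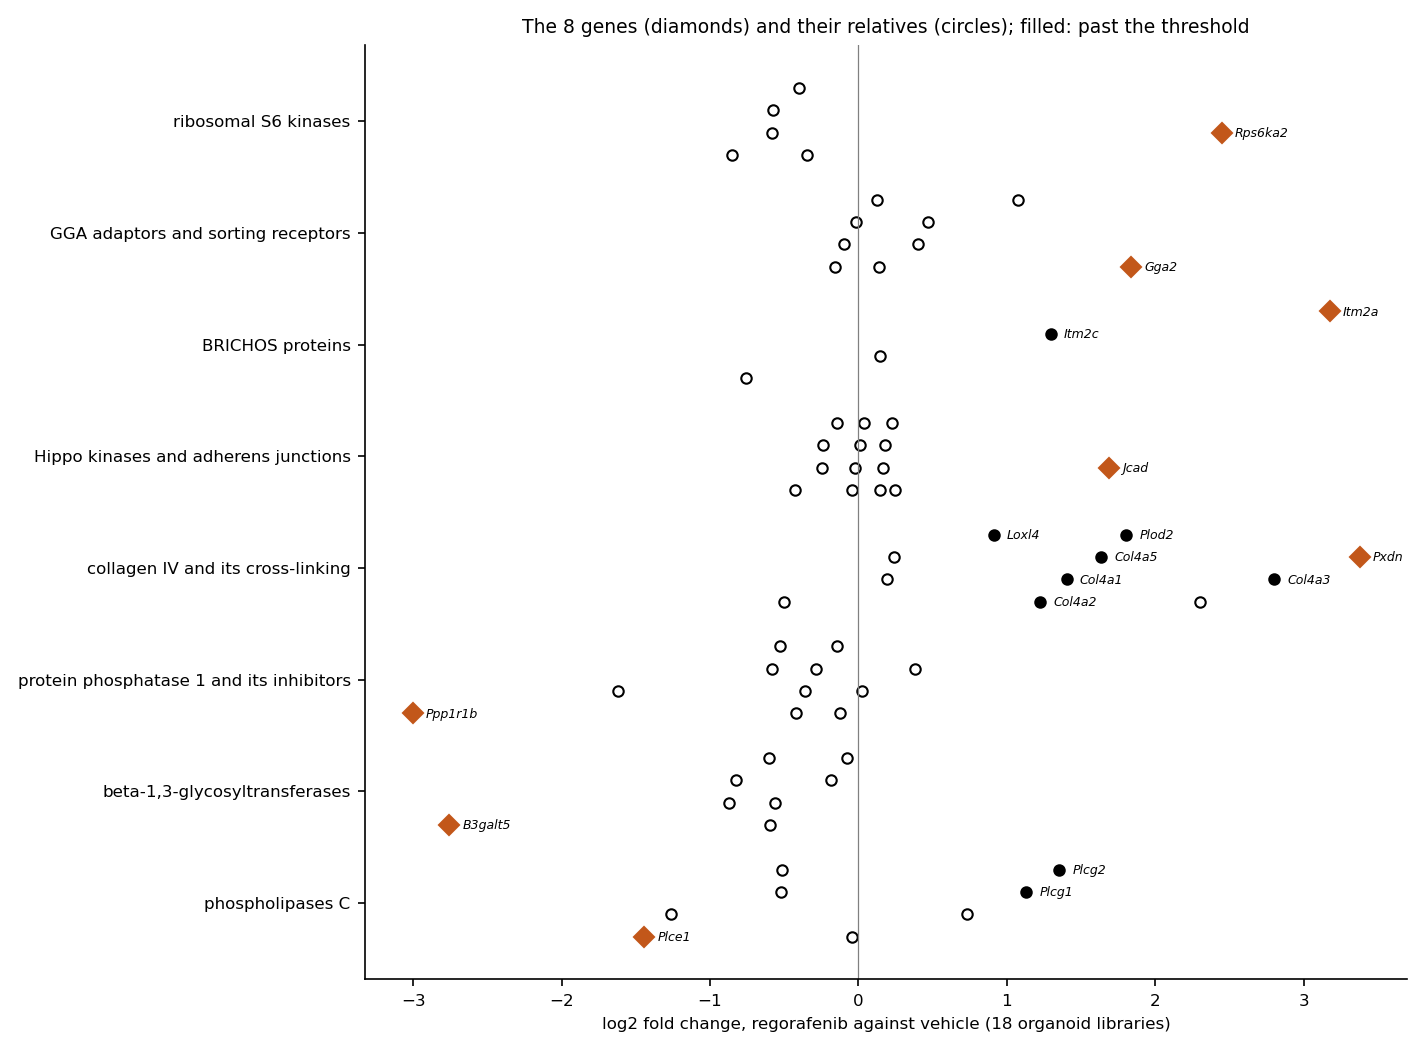
Log2 fold change for regorafenib against vehicle (x axis) of the 8 genes (diamonds) and of the tested genes of their lists (circles), 1 list per row with points spread vertically for legibility, and filled points past the threshold. The filled circles are 6 collagen IV and cross-linking genes, Itm2c, Plcg1 and Plcg2, and the 8 diamonds were chosen on this axis.

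Likeness of pattern was measured as Pearson's r of log2(CP20M + 20) with each of the 11562 tested genes over the 24 organoid libraries, and the 2 highest are given for each gene. For Rps6ka2 they were Ttll1 (0.939) and Jcad (0.936), and for Jcad Rps6ka2 (0.936) and Unc13d (0.910). Gga2 was nearest to its antisense partner Gm44987 (0.975) and to Aph1b (0.943), a gamma-secretase subunit. Itm2a was nearest to Gramd1a (0.928), the target of autogramin-2, and to its own relative Itm2c (0.910). Pxdn was nearest to Tcn2 (0.944) and Npc2 (0.943), the latter a lysosomal cholesterol carrier.

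Among the lower genes, Ppp1r1b was nearest to the overlapping 1700003D09Rik (0.990) and to Gucy2c (0.921), the guanylin receptor of intestinal epithelium. B3galt5 was nearest to Akr1c19 (0.951) and Aqp4 (0.938), a water channel, and Plce1 to Slc10a2 (0.922), the bile acid transporter of the ileum, and Misp (0.902). The homeobox genes Cdx1 and Cdx2, which were on the epithelial marker list, were lower under regorafenib as well, by -3.28 ± 0.50 (limma adjusted p = 0.000274) and -1.89 ± 0.29 (0.000292). The other 7 epithelial markers, among them Epcam, Vil1 and Krt20, did not pass. In bulk libraries fewer cells of a type and less RNA per cell cannot be told apart, and the part of cell composition in the fall of the 3 genes was not tested.

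The fibroblasts answered whether the 8 genes responded to regorafenib outside the epithelium. The organoid and fibroblast tables were normalised separately, so levels are set side by side here without a test. In vehicle-treated fibroblasts Pxdn was at 2851 to 5667 CP20M (22 to 94 in vehicle-treated organoids), Jcad at 1798 to 3023 (117 to 361), Rps6ka2 at 886 to 1358 (47 to 110), Gga2 at 895 to 1368 (207 to 414) and Itm2a at 206 to 576 (18 to 78). The share of all genes that stand higher in fibroblasts was not computed, and nothing is read from these levels.

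Plce1 was at 82 to 336 CP20M in vehicle-treated fibroblasts, against 660 to 3023 in organoids. B3galt5 reached at most 73 CP20M in any of the 19 fibroblast libraries, and stood higher under R4 than vehicle in 4 of 4 lines by 0.23 to 1.02. Ppp1r1b was at 0 in 12 of 19 and had at most 3 reads in the others, where 3 reads correspond to 4.68 to 7.55 CP20M. Neither gene passed the filter of 200 CP20M in at least 2 libraries, so 6 of the 8 genes were tested in fibroblasts.

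Itm2a was the gene that passed the test in fibroblasts. In lines M3, M3(2), M1(2) and M11 it was at 383, 484, 576 and 206 CP20M in vehicle and at 648, 972, 958 and 418 under R4, and under R10 at 1069, 1683 and 917 in the 3 lines treated. The level was higher with the drug in every line, although the vehicle and R4 groups overlapped, with line M11 the lowest in both. R10 differed from vehicle by 1.56 ± 0.46 (3 of 3 lines, limma adjusted p = 0.0298), the only 1 of the 6 tested genes past the threshold (0.05 and 1.5-fold), where 7.33% of 11032 genes were. This comparison is uneven in lines, since line M11, the lowest in vehicle, had no R10 library. Within lines M3, M3(2) and M1(2) the R10 change was 1.43, 1.76 and 0.65. R4 differed by 0.84 ± 0.42 (4 of 4 lines, limma adjusted p = 0.398), and with the line as a block by the same 0.84 with limma adjusted p = 0.00145.

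By limma without the block none of the 6 genes passed at R4, where 1.02% of all genes did. None of them had an unadjusted p under 0.05, and edgeR called none. The R10 call of Itm2a was lost without a filter on low values (limma adjusted p = 0.0504) and without line M3, M3(2) or M1(2) (0.2, 0.22 and 0.0728, with log2 fold changes of 1.42 to 1.93). The sum of the 4 muscle and pericyte markers moved in the same direction as Itm2a. It was 1386 to 2487 CP20M in vehicle, 4005 to 5208 under R4 and 3244 to 4316 under R10. Within it Myh11 was at 513 to 1937, 2606 to 4642 and 2838 to 3796, and Des at 22 to 55, 84 to 167 and 77 to 121. Cspg4 did not follow, at 474 to 1331, 441 to 1289 and 315 to 413, and Rgs5 was at 5 to 38 in these groups. The part of these markers in the Itm2a values was not tested.

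Plce1 stood on opposite sides of vehicle in the 2 kinds of culture. Its fibroblast values were 82, 222, 283 and 336 CP20M in vehicle and 161, 547, 608 and 937 under R4, and 163, 236 and 543 under R10. Every line was higher under R4, by 0.83 to 1.43, while every organoid line was lower. Without the block this was 1.13 ± 0.57 (limma adjusted p = 0.406), and with it 1.13 (limma adjusted p = 0.000184). At R10 the values were 0.39 ± 0.62 (limma adjusted p = 0.746) and, with the block, 0.69 (0.00815), so that 2 of the 6 genes, Itm2a and Plce1, passed in the blocked fit at each dose. That fit called 7.22% of all genes at R4 and 13.8% at R10. The difference between organoids and fibroblasts was not tested.

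The summed muscle and pericyte markers and the summed endothelial markers moved beside Plce1 in these cultures. The 4 muscle and pericyte markers (Myh11, Des, Rgs5 and Cspg4) summed to 1386, 2487, 1433 and 1883 CP20M in vehicle-treated lines M3, M3(2), M1(2) and M11 and to 4073, 5208, 4127 and 4005 under R4. Their sum was higher in 4 of 4 lines, as Plce1 was, and its Pearson's r with Plce1 over the 19 libraries was 0.475 on the log2 scale. Myh11 rose within it (513 to 1937 in vehicle, 2606 to 4642 under R4), whereas Cspg4 did not (474 to 1331 and 441 to 1289). The 5 endothelial markers (Pecam1, Cdh5, Kdr, Tek and Emcn) summed to 1136, 9596, 1896 and 2546 CP20M in the same vehicle-treated lines and to 1838, 25819, 5995 and 7390 under R4, none of them being at 0 in either group. Under R10 they summed to 1531, 6325 and 1773. Pearson's r between Plce1 and this sum was 0.383 over the 19 libraries, which pools lines of unlike levels. Line M3(2) had the highest endothelial sum in every treatment. Its Plce1 was 222 in vehicle, 547 under R4 and 236 under R10, beside sums of 9596, 25819 and 6325. In line M1(2) Plce1 was 283, 608 and 543, beside sums of 1896, 5995 and 1773. The 6 macrophage markers summed to 1096 to 5407 in vehicle, 694 to 1829 under R4 and 517 to 523 under R10 (C1qa at 0), and the 3 glial markers to 581 to 11069 in vehicle and 810 to 11369 under R4. The part of these cells in the Plce1 values was not tested.

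**Figure D4:**
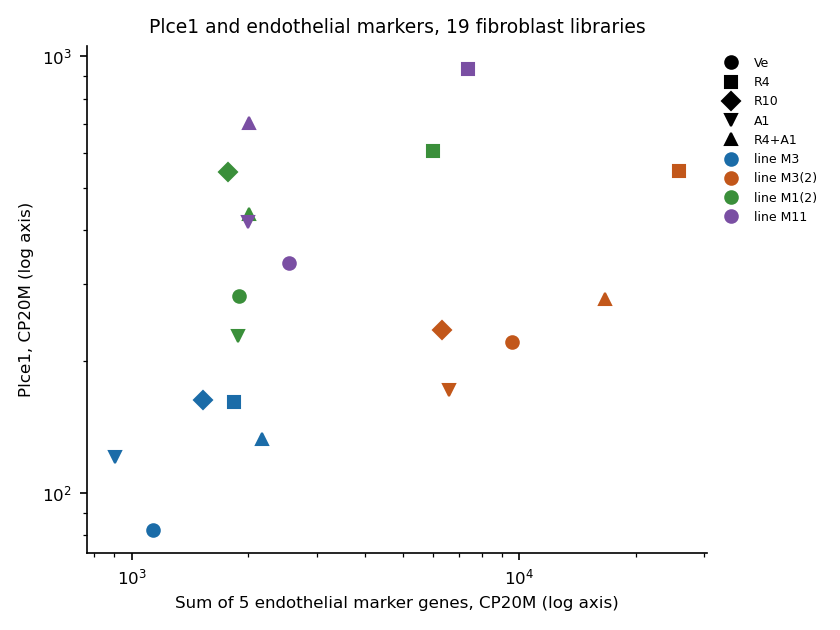
Plce1 (y axis, CP20M, log axis) against the summed CP20M of 5 endothelial markers (x axis, log axis) in the 19 fibroblast libraries, with shapes for the treatments and colours for the lines. Line M3(2) lies to the right with up to 25819 CP20M of markers, and the highest Plce1 value, 937, is that of line M11 under R4 at 7390. Within each line both were higher under R4 than in vehicle.

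No other of the tested genes passed in fibroblasts by limma at R4 or R10, with or without the block. Rps6ka2 went from 1358, 1309, 1083 and 886 CP20M in vehicle to 1642, 1702, 1315 and 1135 under R4 (0.32 ± 0.22, 4 of 4 lines, limma adjusted p = 0.576), and the blocked fit gave limma adjusted p = 0.0025 for the same 0.32, below the fold limit of 1.5. Gga2 had 1368, 1133, 1123 and 895 in vehicle and 1181, 1397, 1183 and 1159 under R4 (0.13, 95% interval -0.17 to 0.44). Under R10 its interval was -0.15 to 0.50.

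Jcad had 1798, 2422, 2225 and 3023 CP20M in vehicle and 2167, 2994, 2081 and 2543 under R4 (0.06, interval -0.26 to 0.38). Pxdn had 4167, 3376, 2851 and 5667 in vehicle and 5747, 4012, 3509 and 5941 under R4 (0.27, -0.20 to 0.74). It was higher in 4 of 4 lines at R4 and in 3 of 3 at R10, and the blocked fit gave 0.27 (limma adjusted p = 0.0485) and 0.28 (0.0367), both below the fold limit. Without the block the intervals at R10 were -0.37 to 0.32 for Jcad and -0.34 to 0.67 for Pxdn. The changes of the same genes in colonoids at 8 µM were 2.30 ± 0.27 and 3.66 ± 0.53, and the dose, the duration and the table differed between the cultures. Jcad at R10 was -0.02 and was above 0 with TMM rescaling (0.029), edgeR (0.0068) and the block (0.044).

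Between 4 and 10 µM in fibroblasts none of the 6 tested genes passed (limma, 0.145% of all genes called, none of the 6 at an unadjusted p under 0.05, none by edgeR). Itm2a was 0.72 ± 0.46 higher at R10 (2 of 3 lines) and Plce1 -0.74 ± 0.62 (lower in 2 of 3 lines), both with intervals that include 0. Line M11 had no R10 library, so this comparison is uneven in lines. With the line as a block the differences were 0.42 (limma adjusted p = 0.117) for Itm2a and -0.45 (0.11) for Plce1, and again none of the 6 passed, where 6.02% of all genes did.

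**Figure D5:**
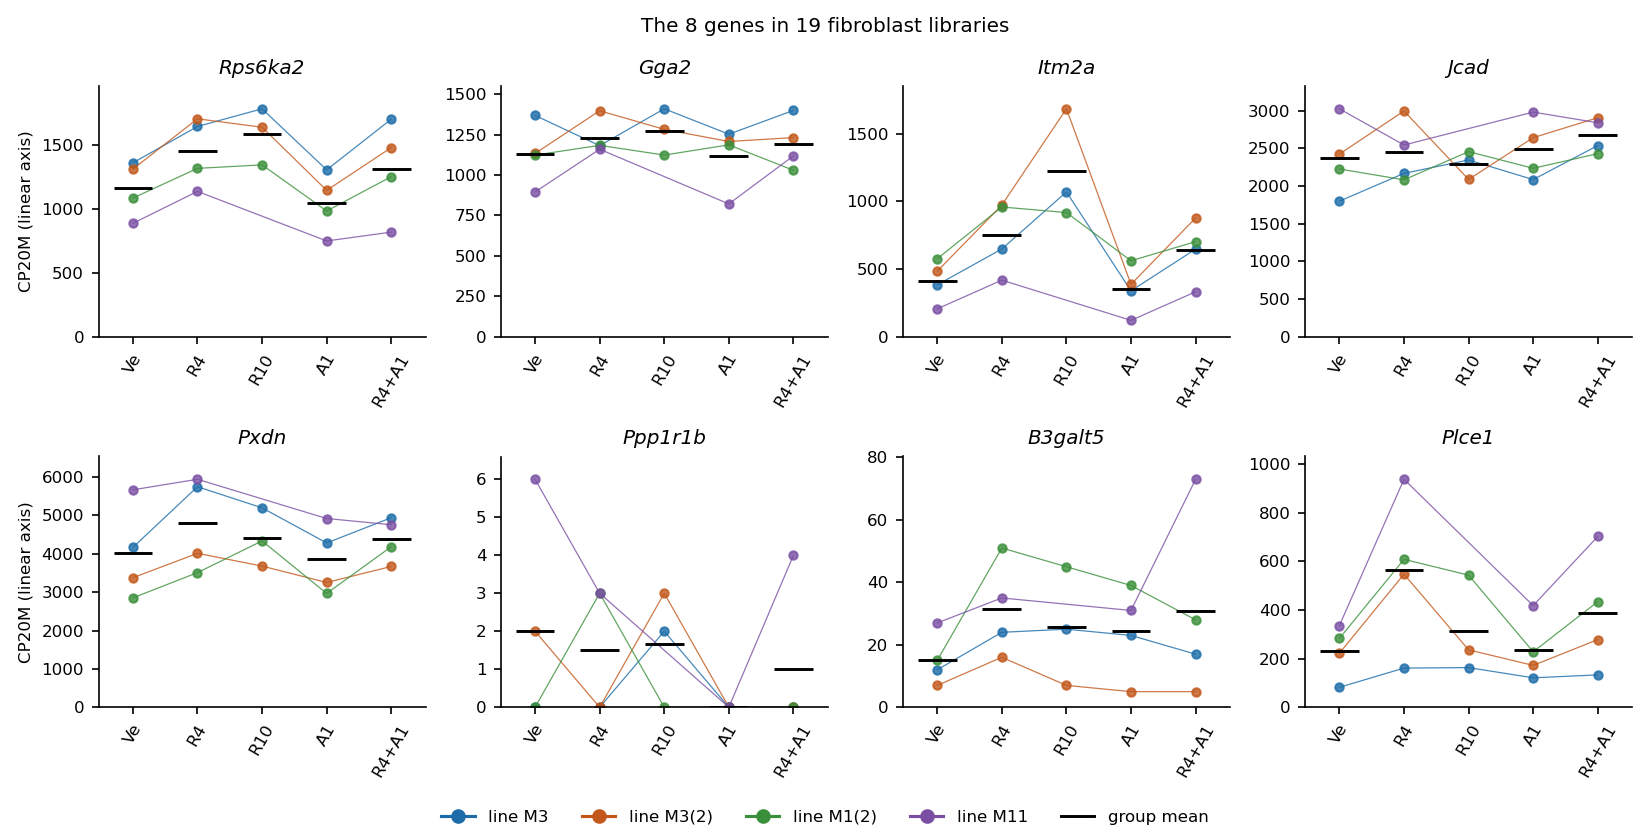
CP20M (linear axis from 0) of the 8 genes in each fibroblast library by treatment, with a colour for each line and black bars at the group means. Itm2a rises from vehicle to R4 in all 4 lines and stands highest under R10 in lines M3 and M3(2), Plce1 is highest under R4 in lines M3(2), M1(2) and M11, and Ppp1r1b does not exceed 6 CP20M.

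Autogramin-2 alone left the 6 tested genes within 0.30 of vehicle on the log2 scale. By limma none of them passed, as 0% of all genes did, none had an unadjusted p under 0.05 while 120 of all tested genes had, and edgeR called 0 genes. Rps6ka2 and Itm2a were lower than vehicle in 4 of 4 lines, by -0.16 (95% interval -0.62 to 0.30) and -0.30 (-1.19 to 0.59).

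With 4 µM regorafenib and autogramin-2 together, Itm2a was at 647, 877, 702 and 332 CP20M and Plce1 at 133, 278, 434 and 702. Both were above vehicle in 4 of 4 lines. Without the block by limma none of the 6 genes passed (1.66% of all genes did), none had an unadjusted p under 0.05 and edgeR called none of them. With the line as a block Itm2a (0.62, limma adjusted p = 0.0106) and Plce1 (0.62, 0.0138) passed, as did 6.99% of all genes.

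The addition of autogramin-2 to regorafenib asked whether it changed the response to the drug. Plce1 was lower with both drugs than with regorafenib alone in 4 of 4 lines, by -0.51 (95% interval -1.73 to 0.70), and Itm2a in 4 of 4 lines by -0.23 (-1.12 to 0.67). By limma none of the 6 passed without the block (0.00906% of all genes did) or with it (1.43%), none had an unadjusted p under 0.05 and edgeR called none. Rps6ka2 was lower in 3 of 4 lines (-0.17), and Jcad higher in 3 of 4 (0.14). The muscle and pericyte sum was also lower with both drugs than with R4 alone in 4 of 4 lines (2474, 2817, 2853 and 2498 against 4073, 5208, 4127 and 4005). Within it Myh11 was lower (1114 to 2224 against 2606 to 4642), whereas Cspg4 was not (513 to 1295 against 441 to 1289). The endothelial sum was lower in lines M3(2), M1(2) and M11 (16663, 2006 and 2006 against 25819, 5995 and 7390) and higher in line M3 (2167 against 1838), where Plce1 was lower (133 against 161). The part of these sums in the Plce1 values was not tested.

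Of the relatives, 62 of 88 were tested in fibroblasts. At R4, 2 passed (3.23%, against 1.02% of all genes), Ppp1r14a, an inhibitor of myosin phosphatase (1.80 ± 0.29, limma adjusted p = 0.00298), and Plcb4 (1.35 ± 0.31, 0.0331). At R10, 5 passed (8.06%, against 7.33% of all genes), with Ppp1r14a at 2.54 ± 0.31 and Plcb4 at 2.01 ± 0.33 higher and Ctnna1, Loxl3 and B3gnt2 lower, by -0.64 ± 0.13, -0.94 ± 0.17 and -0.60 ± 0.14. Of these 5, edgeR did not call B3gnt2. Of the 12 tested genes of the collagen list, Loxl3 was the only 1 past the threshold at R10, while edgeR called Loxl1 and Loxl3. With both drugs the same 2 genes as at R4 passed (3.23%, against 1.66% of all genes), Ppp1r14a at 1.69 ± 0.29 (limma adjusted p = 0.00456) and Plcb4 at 1.20 ± 0.31 (0.0431).

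Likeness over the 19 fibroblast libraries gave other neighbours. Itm2a was nearest to Unc5c (0.966) and Plxdc2 (0.958), Plce1 to Pdgfb (0.953) and Rassf10 (0.938), Rps6ka2 to Zfp568 (0.978) and Luzp1 (0.962), and Jcad to Heg1 (0.890) and Hmbox1 (0.870). Pxdn was nearest to Col1a1 (0.862) and Pcdhb17 (0.856), and Gga2 to Setd7 (0.849) and AC124712.1 (0.841). Differences between the lines weigh on these values, since the libraries of a line share their mouse.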

How the data were processed

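Reads were paired and were, per the labels, trimmed with Trimmomatic 0.36, aligned with STAR 2.5.3a to GRCm38 and counted per gene with HTSeq 0.9.1. The deposited signal is gene counts scaled to 20000000 reads by the authors (CP20M) and rounded up. The labels name the Ovation SoLo kit and the study's methods a directional NEBNext kit for organoids, and the strand setting of counting is not given in the sources used here. Whole reads were recovered from the steps of the values (99.61 to 99.95% of values per library were whole within the rounding). In 3 organoid libraries a read was worth less than 1 CP20M. Reads were estimated there, and this check could not be made.

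limma 3.58.1 was fitted in R to log2(CP20M + 20), with 1 coefficient per group and a mean-variance trend, on 18 organoid libraries (Ve, R4 and R8), all 24 (5-FU) or 19 fibroblast libraries. Genes with 200 CP20M (10 CPM) in at least 2 libraries were tested, with Benjamini-Hochberg adjustment over all of them. Thresholds were a false discovery rate of 0.001 (regorafenib in organoids), 0.01 (genotype, with a fold limit of 2) or 0.05, with a fold limit of 1.5 elsewhere and none for interactions. edgeR 4.0.16 on the recovered reads, other settings, the line as a block and left-out lines were alternatives. Fits were tested on simulated data. Libraries of a line come from the same mouse, and same-line libraries deviated together (mean r 0.50 over 24 organoid and 0.72 over 19 fibroblast libraries, 0.012 in the lowest organoid pair).

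The genes, the lists and the tests were chosen with earlier results of these data known. Named beside the 8 genes are up to 5 genes per list past a threshold, the 2 most alike genes of each, Apc, and some that missed, chosen after their values were seen. Gene positions and exon lengths are from GENCODE M21 (GRCm38), which held 52403 of the 52636 gene IDs. Lats2 names 2 rows, of which the annotated ID was used. Depth limits the precision, floors cover counting error only, and replicate libraries differed beyond counting noise (chi-square per degree of freedom of 8.86 or more).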

Additional observations from a re-analysis of the deposited data

Results flagged for a closer look

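In fibroblasts, the 4 libraries of a group were compared for each of the 8 genes, and the most distant library was set against Dixon's 95% critical value, which chance passes in about 1 in 20 groups. It was passed in 3 of 31 groups. Gga2 was at 1397 CP20M in line M3(2) under R4, where the nearest other line had 1183, and at 821 CP20M in line M11 under autogramin-2, where the nearest had 1186. Ppp1r1b was at 4 CP20M in line M11 under both drugs, where the other 3 lines were at 0, which is at most 3 reads.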

How the results depend on the processing

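Counts of genes past the threshold moved more than the genes' own values. Regorafenib against vehicle in organoids called 563 genes, 889 with edgeR and 1127 without the shallow colonoid library. The dose step called 51, against 10 without a filter on low values, 96 with TMM rescaling, 96 with edgeR, 201 with the line as a replicate block and 130 without the shallow library. The genotypes in vehicle gave 16, against 3 with a pseudocount of 2, 30 with TMM, 27 with edgeR and 84 without the shallow library. 5-FU gave 272, against 153 without a filter, 427 with edgeR, 584 with the block, 493 without the shallow library and 6 in colonoids alone, an alternative chosen after seeing the data.

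Of the 8 genes, the dose step called 1, and 0 without a filter. In vehicle 0 passed between the genotypes, and 1 (Plce1) with edgeR and without the shallow library. For 5-FU 2 passed, against 0 without a filter, 1 with TMM, 5 with edgeR, 4 with the block, 4 without the shallow library and 0 in colonoids alone. In fibroblasts the block raised the number from 0 to 2 at 4 µM, from 1 to 2 at 10 µM and from 0 to 2 with both drugs, and 10 µM gave 0 without a filter. The block changed no other call of the 8 genes, and it could not be fitted for the genotypes in vehicle, since each line has 1 genotype.

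In fibroblasts the block gave 796 genes for 4 µM regorafenib (113 without it), 1519 for 10 µM (809), 771 for both drugs (183), 664 for 10 against 4 µM (16) and 158 for autogramin-2 added to regorafenib, where the fit without it gave 1 and TMM and edgeR 0. Directions that turned belonged to differences near 0. For 10 µM against vehicle Jcad was 0.029 with TMM, 0.0068 with edgeR and 0.044 with the block. For 10 against 4 µM the block gave -0.0074 for Rps6ka2, -0.029 for Gga2 and 0.013 for Pxdn. The cause was not tested for any of these.

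With 1 line left out at a time, the count of all genes ran from 155 to 642 for regorafenib in organoids, 0 to 35 for the dose step, 3 to 49 for the genotypes in vehicle and 26 to 254 for 5-FU. In fibroblasts it ran from 28 to 317 at 4 µM, 358 to 1118 at 10 µM, 32 to 359 with both drugs and 0 to 45 for 10 against 4 µM, and was 0 throughout for autogramin-2 added to regorafenib. Of the 8 genes, 0 passed for the dose step in each case, 0 to 1 for the genotypes, 0 to 2 for 5-FU and 0 to 1 at 10 µM in fibroblasts. With fewer lines fewer degrees of freedom remain.

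Single values whose sign turned in this way were small. In organoids Plce1 ran from -0.21 to 0.13 for the dose step, from -0.25 to 0.42 for its genotype difference and from -0.27 to 0.47 for the genotype difference of 5-FU, where B3galt5 ran from -0.37 to 0.026 and Itm2a from -0.073 to 0.36. In fibroblasts Jcad ran from -0.026 to 0.16 at 4 µM, from -0.16 to 0.10 at 10 µM and from -0.20 to 0.088 between them. Gga2 ran from -0.049 to 0.11 and Pxdn from -0.24 to 0.011 between the doses. With autogramin-2 Gga2 ran from -0.057 to 0.015, Plce1 from -0.11 to 0.16 and Pxdn from -0.073 to 0.014, and Gga2 from -0.14 to 0.0033 when it was added to regorafenib.

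Depth limits the shallow colonoid library most, where 3 reads correspond to 117 CP20M, against at most 13.7 in the other organoid libraries. The intervals given are those of the fit without the line, and the blocked fit called differences smaller than they allow.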
